A study of Mus musculus with 2 samples.

Results

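The genes of the mouse histocompatibility complex (H2) and of antigen loading were followed in sorted mammary luminal cells, as 44 of the 16906 genes in the expression table. Of these, 33 have a symbol starting with H2-, and 11 were added by name: Gm10499, LOC547349, B2m, Tap1, Tap2, Tapbp, Tapbpl, Erap1, Cd74, Ciita and Nlrc5. The members were chosen by symbol, but the set was drawn up after high CKO to Ctrl ratios of FPKM had been seen for H2-Q10, H2-Bl, H2-T10 and Gm10499 in these same libraries. Their ratios are therefore a description, and no test of them is given. By GENCODE M21, 36 of the members are protein coding, 4 are kinds of pseudogene (H2-T-ps, H2-T10, H2-Bl and Gm10499) and 4 have no gene of that name (H2-Q8, H2-Q9, H2-T18 and LOC547349).

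Bulk RNA sequencing was done on 1 library per group. Ctrl came from C57BL/6 mice with genotype miR-200c/141-flox/flox, in which the floxed microRNA cluster is intact. CKO came from K8-CreERT2;miR-200c/141-flox/flox mice of the same strain, in which a tamoxifen-inducible Cre recombinase is driven by the promoter of the luminal keratin gene Krt8. All mice were 8 weeks old and received tamoxifen, and about 20000 luminal cells were taken by fluorescence-activated sorting. How long after tamoxifen the cells were taken is not known, because one label says 4 weeks and another 3 days. Only CKO carried Cre, so an effect of Cre and one of the deletion cannot be told apart. The microRNAs themselves are not analysed here, so the deletion was not checked. The number of mice per library is not stated, and there is no replicate behind any value below. Class I genes differ in number and sequence between mouse strains, and whether both libraries carry the same H2 alleles was not tested.

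Class I molecules are made of a heavy chain and the light chain beta-2-microglobulin, and they show peptides from inside the cell to CD8 T cells. The classical heavy chains of C57BL/6 mice are H2-K1 and H2-D1. Those of the Q, T and M loci are called nonclassical, and several are ligands of natural killer or unconventional T-cell receptors. Peptides are cut by the proteasome, carried into the endoplasmic reticulum by the transporter Tap1 and Tap2, trimmed by Erap1 and loaded with the help of tapasin (Tapbp). Class II molecules show peptides from outside the cell to CD4 T cells and are best known from dendritic cells, macrophages and B cells, but epithelial cells can make them too. Their assembly needs the invariant chain Cd74, and peptide exchange needs H2-DM. Nlrc5 and Ciita are the respective transcriptional coactivators of the class I and class II genes.

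Promoter sequences of the class I genes are shown first because both classical genes and several Q genes share a block of elements there, which some carry with changes. RefSeq promoter windows, from 250 bases before to 50 after a gene's start on GRCm38.p6, were found for 30 of the 44 members. The stretches below are aligned on the box TTTCACTTCT, an interferon response element, and run 5′ to 3′ on the strand of the gene. Capitals mark that box and, before it, GGGGATTCCCC or its first 10 bases GGGGATTCCC, an NF-kB type site. The H2-D1 line is limited to 30 bases, and so ends 1 base short of the box, because a GENCODE transcript annotates the stretch as untranslated.
H2-K1, chr17:34000353-34000477, minus strand: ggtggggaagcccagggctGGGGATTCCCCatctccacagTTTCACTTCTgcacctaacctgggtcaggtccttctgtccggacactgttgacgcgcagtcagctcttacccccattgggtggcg
H2-D1, chr17:35262923-35262952, plus strand: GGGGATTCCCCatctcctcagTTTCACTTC
H2-Q4, chr17:35379424-35379548, plus strand: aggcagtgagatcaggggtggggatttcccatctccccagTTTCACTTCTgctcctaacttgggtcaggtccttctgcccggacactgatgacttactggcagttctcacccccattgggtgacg
H2-Q6, chr17:35424658-35424782, plus strand: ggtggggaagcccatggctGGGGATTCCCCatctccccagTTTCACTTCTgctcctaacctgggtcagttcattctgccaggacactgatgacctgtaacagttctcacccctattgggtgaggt
H2-Q7, chr17:35439002-35439126, plus strand: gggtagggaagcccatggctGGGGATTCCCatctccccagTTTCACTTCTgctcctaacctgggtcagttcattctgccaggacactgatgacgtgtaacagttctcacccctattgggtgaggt
H2-Q10, chr17:35469894-35470018, plus strand: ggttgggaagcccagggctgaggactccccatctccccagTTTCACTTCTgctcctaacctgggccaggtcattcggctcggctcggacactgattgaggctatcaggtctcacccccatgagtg

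Stretches of 125 bases per gene were aligned to that of H2-K1, and with gaps the aligned length can exceed 125. The identity to H2-K1 was 91.2% for H2-D1, 84.9% for H2-Q6, 83.5% for H2-Q7, 81.6% for H2-Q4 and 80.2% for H2-Q10. The motifs searched were stretches of the H2-K1 window. On either strand, GGGGATTCCCC was in the windows of 3 members (H2-K1, H2-D1 and H2-Q6) and in 0.0304% of all 32851 windows. Its shorter form GGGGATTCCC, which lies within it, added H2-Q7 and was in 0.107% of windows. At that place, counted from 1 at the 5′ end of GGGGATTCCCC, H2-Q4 carries C8T and H2-Q10 carries G2A and T6C. The box TTTCACTTCT was in 7 members (H2-K1, H2-D1, H2-Q4, H2-Q6, H2-Q7, H2-Q10 and H2-M3) and in 0.155% of windows. The Y box CTGATTGG was in 13 members, among them the class II chains H2-Aa and H2-Eb1, and in 4.10% of windows. These matches describe the letters of the reference and not binding of a factor.

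Levels are given in FPKM (sequenced fragments divided by transcript length in kilobases and by library size). Members whose 2 values averaged 1 FPKM or more are called measured, which 34 of 44 were. Log2 ratios are CKO over Ctrl after adding 0.5 FPKM to each value. Brackets hold the 95% exact (Clopper-Pearson) interval of the log2 read ratio, which covers counting error only and was computed without the added value. By estimate from the deposited p-values, Ctrl rests on about 12550000 reads and CKO on about 11500000.

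A gene was called higher or lower at a ratio of at least 1.5-fold with an interval that excludes a ratio of 1. By this rule 17 of the 34 measured members were higher in the CKO library, where 2.28% of all 11667 measured genes were. Lower were 2 members, H2-T24 and H2-DMb1, where 3.03% of all measured genes were. The median log2 ratio of the measured members was 0.60, against -0.03 over all measured genes. Ratios above 0 were found for 25 of the 34, against 44.8% of all measured genes. At a stricter 2-fold rule, with a minimum of 5 FPKM in the library where a gene is higher, 8 of 31 members were higher (0.654% of 8870 genes) and 0 lower (0.349%). Because the members were chosen with these ratios in view, nothing is read from these shares. In 6 of the measured members the Ctrl value was under 1 FPKM, so they counted as measured only through their CKO value. Their ratio therefore had to be above 1, and all 6 were called higher. Without them, among 28 members at 1 FPKM or more in Ctrl, 11 were higher and 2 lower, and the median was 0.41.

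**Figure D1:**
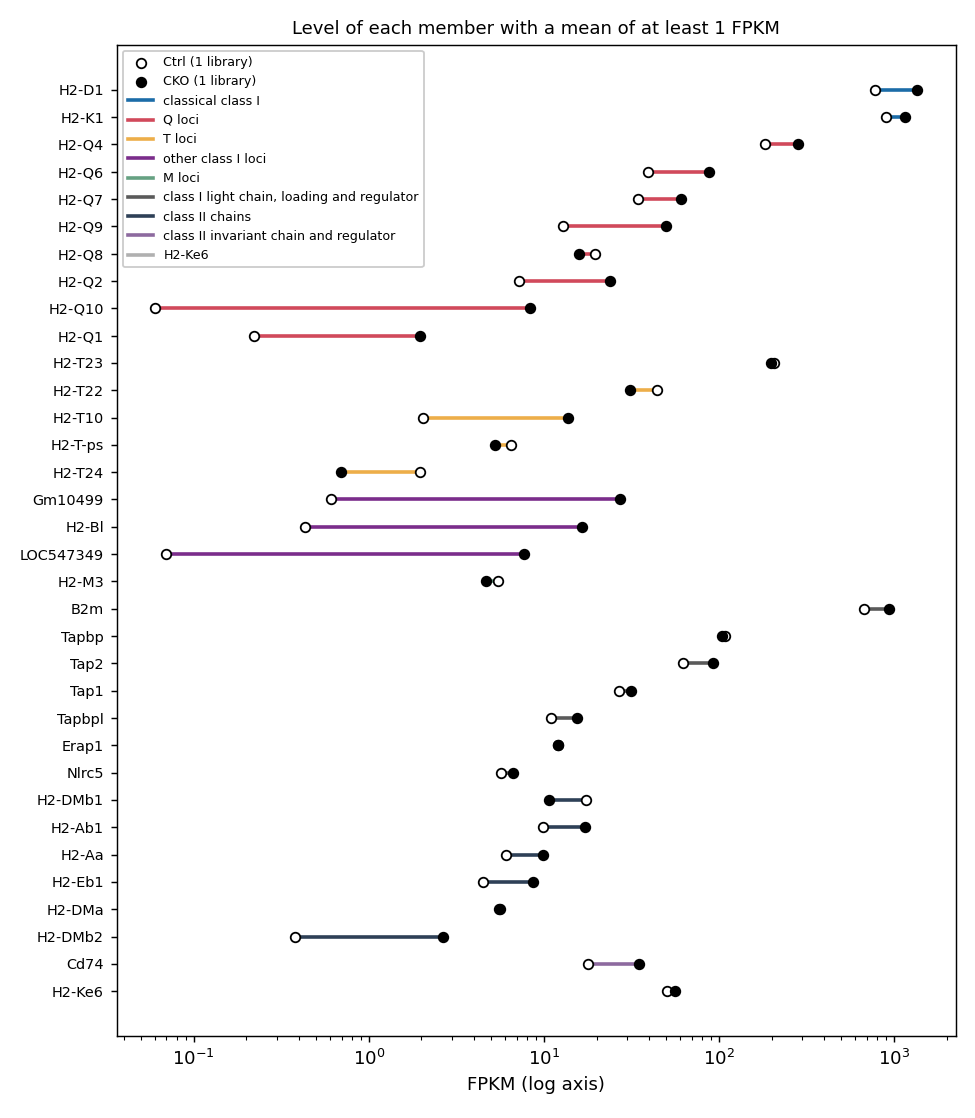
Level of the 34 measured members in FPKM on a log axis, with open points for the Ctrl library and filled points for the CKO library (1 library each) and lines coloured by class. H2-K1, H2-D1 and B2m lie between 674.72 and 1358.98 FPKM in both libraries, while H2-Q10, H2-Bl, Gm10499 and LOC547349 are under 1 FPKM in Ctrl and between 7.71 and 27.18 FPKM in CKO.

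The classical heavy chains were among the most abundant transcripts of these cells. H2-K1 (chr17:33996017-34000347, minus strand, GRCm38) had 901.15 FPKM in Ctrl and 1153.19 in CKO, ranks 73 and 60 of all genes. Its log2 ratio was 0.36 (0.33 to 0.38), from about 19373 and 22693 reads. H2-D1 (chr17:35262730-35267499, plus strand) was at 774.38 and 1358.98 FPKM, ranks 92 and 42. Its log2 ratio of 0.81 (0.78 to 0.84) was the larger one, from about 16871 and 27101 reads. The order of the pair therefore differed between the libraries: H2-K1 stood at 1.16 times H2-D1 in Ctrl and at 0.849 times in CKO. Their sum was 1675.53 FPKM in Ctrl and 2512.17 in CKO, a log2 difference of 0.58.

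The 8 Q loci, a tandem series next to H2-D1, came to 295.91 FPKM in Ctrl and 533.25 in CKO when summed, 1.80 times as much. All 8 were measured, 7 were higher in CKO (2.28% of all measured genes were) and 0 lower (3.03%), and their median log2 ratio was 1.41. Of the 6 at 1 FPKM or more in Ctrl, 5 were higher. H2-Q4, the most abundant, was at 182.28 and 283.93 FPKM (log2 0.64, 0.58 to 0.70). H2-Q6 was at 39.2 and 88.05 FPKM (1.16, 1.01 to 1.33). H2-Q7, which with H2-Q9 encodes the GPI-anchored Qa-2 antigen, was at 34.3 and 61.08 FPKM (0.82, 0.67 to 0.999). These more abundant Q genes were at least 1.5-fold higher in CKO, with counting intervals clear of 0.

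The less abundant Q genes had the wider ratios. H2-Q9 had 12.92 FPKM in the Ctrl library and 50.08 in the CKO library (log2 1.91, 1.75 to 2.16). H2-Q2 was at 7.22 and 24 FPKM (1.67, 1.45 to 2.03). H2-Q1 was at 0.22 and 1.97 FPKM, from about 6 and 45 reads, with an interval of 1.80 to 4.55. H2-Q10, known as a secreted class I chain made by the liver, had about 1 read in Ctrl (0.06 FPKM) and 140 in CKO (8.3 FPKM). Its log2 read ratio had an interval of 4.76 to 12.57, so the size of the difference is poorly fixed. H2-Q8 was the exception, at 19.71 FPKM in Ctrl and 15.84 in CKO (log2 -0.31, -0.60 to -0.03), and it did not reach 1.5-fold.

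H2-Bl and Gm10499 lie among the T loci on the chromosome but are described separately below. Without them, the T loci as a class had almost the same sum in both libraries, 260.86 FPKM in Ctrl and 248.89 in CKO (log2 of sums -0.07). Most of it was H2-T23, the gene of Qa-1, which presents class I leader peptides to the receptor CD94/NKG2A. It was at 205.54 and 197.61 FPKM (log2 -0.06, -0.13 to 0.01), rank 4 among the members in Ctrl and 5 in CKO. Of the 5 measured T loci 1 was higher (2.28% of all measured genes were) and 1 lower (3.03%), and their median log2 ratio was -0.28. H2-T22, a ligand of gamma-delta T-cell receptors, had 44.53 FPKM in Ctrl and 31.12 in CKO (log2 -0.51, -0.66 to -0.37). Its near copy H2-T10 went the other way, at 2.05 and 13.82 FPKM (2.49, 2.39 to 3.12), from about 74 and 454 reads. H2-T24 was at 1.97 and 0.69 FPKM, about 48 and 16 reads (log2 -1.05, -2.37 to -0.62). The pseudogene H2-T-ps was at 6.49 and 5.24 FPKM, and its interval of -0.79 to 0.16 includes 0.

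Close to absent in the Ctrl library were 3 further class I loci, all of which had reads in CKO. Gm10499 (chr17:36141758-36145923, minus strand) had 0.61 FPKM in Ctrl and 27.18 in CKO, about 10 and 426 reads (interval 4.65 to 6.61). H2-Bl (chr17:36080115-36084223, minus strand) was at 0.43 and 16.59 FPKM, about 6 and 222 reads (4.19 to 6.80). LOC547349 was at 0.07 and 7.71 FPKM, about 1 and 109 reads (4.39 to 12.21). Together they made up 0.0496% of all class I heavy-chain FPKM in Ctrl and 1.54% in CKO.

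Of the 5 M loci only H2-M3, which presents N-formylated bacterial peptides, was measured. It had 5.5 FPKM in Ctrl and 4.66 in CKO (log2 -0.22, -0.69 to 0.21), and the counting interval includes 0. H2-M2 had 0.3 and 0.93 FPKM, about 6 and 16 reads. The 10 members that were not measured were Ciita, H2-Eb2, H2-M2, H2-M9, H2-M10.2, H2-M10.6, H2-Oa, H2-Ob, H2-T3 and H2-T18, whose higher value lay between 0.06 and 0.93 FPKM.

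**Figure D2:**
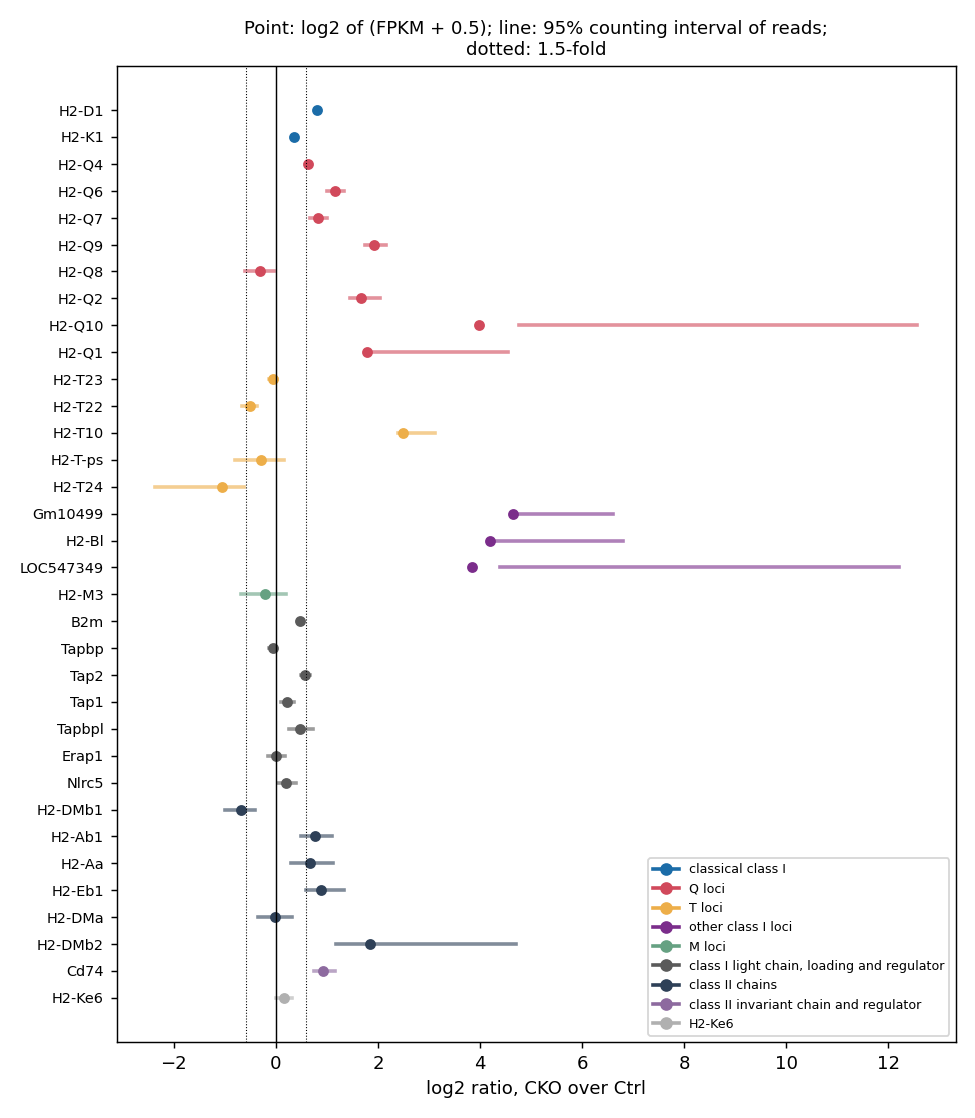
Log2 ratio of CKO over Ctrl for the 34 measured members (points, with 0.5 FPKM added) and 95% counting interval of the read ratio (lines), coloured by class, with dotted lines at 1.5-fold. All 8 Q loci except H2-Q8 lie to the right of the dotted line, the loading genes lie between the dotted lines, and points of very weak genes can fall outside their interval because of the added 0.5 FPKM.

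Summed over all 25 class I heavy-chain members, the level was 2239.45 FPKM in Ctrl and 3351.72 in CKO. The classical pair held 74.8% of this sum in Ctrl and 75.0% in CKO. The Q loci went from 13.2% to 15.9%, and the T loci from 11.6% to 7.43%. Taken singly, H2-K1 went from 40.2% to 34.4% of the class I sum, H2-D1 from 34.6% to 40.5%, and H2-T23 from 9.18% to 5.90%. The class I sum was thus made up mainly of the same few genes in both libraries, with the share of H2-D1 higher and those of H2-K1 and H2-T23 lower in CKO.

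Of the 7 genes of the light chain, the loading machinery and its coactivator, 0 were called higher (2.28% of all measured genes were) and 0 lower (3.03%). Their median log2 ratio was 0.22. B2m, the light chain of every class I molecule (chr2:122147686-122153083), had 674.72 FPKM in Ctrl and 937.02 in CKO (log2 0.47, 0.43 to 0.52). The classical heavy chains summed to 2.48 times the B2m level in Ctrl and 2.68 times in CKO. Tap2 was at 62.36 and 92.89 FPKM (0.57, 0.49 to 0.66), just under 1.5-fold, and its transporter partner Tap1 at 26.93 and 31.38 (0.22, 0.09 to 0.35). The ratio of Tap2 to Tap1 was 2.32 in Ctrl and 2.96 in CKO.

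The other loading genes were close to equal or moderately higher in CKO. Tapbp, which bridges the transporter and the empty class I molecule, had 108.37 FPKM in Ctrl and 103.82 in CKO (log2 -0.06, -0.13 to 0.01). Tapbpl, a tapasin relative that edits peptides, was at 11.03 and 15.51 (0.47, 0.27 to 0.72). Erap1, the trimming aminopeptidase, was at 12.01 and 12.1 FPKM. The coactivator Nlrc5 was at 5.71 and 6.65 (0.20, 0.04 to 0.40). Among the measured class I heavy-chain members, H2-K1, H2-T22, H2-T23, H2-T-ps, H2-M3 and H2-Q8 were not called either. Their values were not all in the range of the loading genes. H2-T22 (log2 -0.51, -0.66 to -0.37) and H2-Q8 (-0.31, -0.60 to -0.03) had intervals below 0.

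Class II transcripts were far scarcer than class I, with a sum over 9 chains of 44.95 FPKM in Ctrl and 55.77 in CKO. The measured chains of I-A and I-E, H2-Ab1, H2-Aa and H2-Eb1, were all higher in CKO. H2-Eb2 was not measured, at 0.06 FPKM in Ctrl and 0.01 in CKO. H2-Ab1 had 9.89 FPKM in Ctrl and 17.19 in CKO (log2 0.77, 0.50 to 1.11). Its partner H2-Aa was at 6.1 and 9.94 (0.66, 0.29 to 1.13), and H2-Eb1 at 4.49 and 8.7 (0.88, 0.58 to 1.34). C57BL/6 mice are known to lack a working I-E alpha gene, so the I-E beta chain has no partner there. Cd74, the invariant chain, was at 17.98 and 34.79 FPKM, about 288 and 511 reads (0.93, 0.74 to 1.17). Its ratio to H2-Ab1 was 1.82 in Ctrl and 2.02 in CKO. These 4 genes were thus higher together, between 4.49 and 34.79 FPKM.

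The genes of the peptide exchanger H2-DM did not share that direction. H2-DMb1 had 17.41 FPKM in Ctrl and 10.69 in CKO, about 281 and 158 reads (log2 -0.68, -0.99 to -0.42). H2-DMb2 was at 0.38 and 2.66 FPKM, from about 4 and 24 reads (1.17 to 4.70). H2-DMa, the alpha chain, was at 5.62 and 5.54 FPKM. The class II coactivator Ciita was at 0.09 and 0.14 FPKM, about 5 and 7 reads, so no difference in it was detectable at this depth. H2-Oa and H2-Ob, which restrain H2-DM, were both under 1 FPKM in both libraries. Over the class II chains, 6 of 9 could be measured, with a median log2 ratio of 0.71. Of the 6, 4 were higher (2.28% of all measured genes were) and 1 lower (3.03%). H2-DMb2 counted as measured only through its CKO value. Of the 5 chains at 1 FPKM or more in Ctrl, 3 were higher and 1 lower.

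H2-Ke6 carries an H2- symbol by its position but encodes estradiol 17-beta-dehydrogenase 8 and presents no antigen. It had 50.35 FPKM in Ctrl and 56.23 in CKO (log2 0.16, -0.002 to 0.32). Of the 50-base windows of its transcript 79.8% are also in another annotated gene, foremost Gm20427.

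Many class I genes are near copies, so reads can be assigned to one or another. The share of 50-base windows of a member's transcripts found in a transcript of another GENCODE M21 gene was 46.4% for H2-T22, 41.6% for H2-T10, 36.8% for H2-Q6, 30.1% for H2-DMb2, 28.8% for H2-T23 and 27.2% for H2-DMb1. It was 24.3% for H2-Q4, 22.9% for H2-Q1, 19.9% for H2-Q7, 14.3% for H2-D1, 11.8% for H2-Bl, 10.96% for H2-Q10, 8.79% for H2-K1, 8.74% for H2-Q2 and 2.60% for Gm10499. It was 0 for H2-Aa, H2-Ab1, H2-Eb1, H2-DMa, Cd74, B2m, Erap1 and Nlrc5. The 4 members absent from that annotation could not enter, so the shares of their relatives may be too low, and the length of the reads is not given in the sources used here. The values of the single Q and T loci are uncertain for this reason, and sums over related genes depend less on the assignment.

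For 3 pairs of members that share at least 20% of windows, the sums were taken after the single values had been seen. H2-Q6 and H2-Q7 summed to 73.5 FPKM in Ctrl and 149.13 in CKO (log2 1.02; read interval 0.89 to 1.12), so the pair was higher as each member was. H2-T10 and H2-T22 summed to 46.58 and 44.94 FPKM (log2 -0.05), while the share of H2-T10 in the sum was 4.40% in Ctrl and 30.8% in CKO. Their estimated reads summed to 1022 and 1061, a log2 interval of 0.06 to 0.31, so the sums of FPKM and of reads differ in sign for this pair. H2-DMb1 and H2-DMb2 summed to 17.79 and 13.35 FPKM (log2 -0.41; read interval -0.80 to -0.25), with H2-DMb1 at 97.9% of the sum in Ctrl and 80.1% in CKO. In these pairs of opposite direction the difference was thus mostly in how the sum was divided between the genes for H2-T10 and H2-T22, and in a lower sum as well for the H2-DMb genes.

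**Figure D3:**
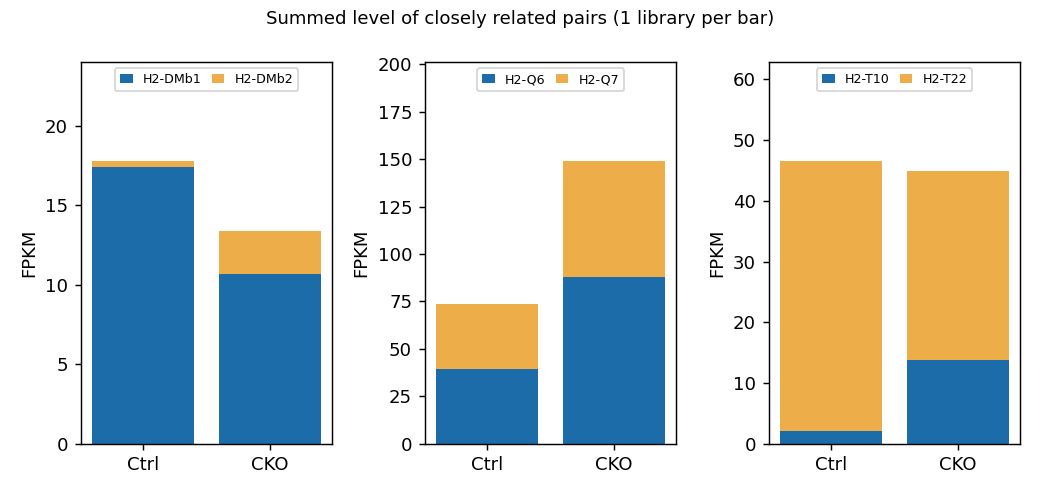
Summed FPKM of 3 pairs of closely related members in the Ctrl and CKO libraries (1 library per bar), split by gene. The H2-Q6 and H2-Q7 bar is at 73.5 in Ctrl and 149.13 in CKO, while the H2-T10 and H2-T22 bars are nearly equal in height and differ in the part held by H2-T10.

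The deposited p-values carry a read ratio of their own, which did not always match the FPKM ratio. It differed by over 0.1 on the log2 scale in 7 of the 33 measured members for which it could be computed: H2-K1, H2-Q1, H2-Q2, H2-Q10, H2-Bl, Gm10499 and LOC547349. For LOC547349 it was 5.88, against 6.78 from the deposited FPKM with no added value, and for H2-Q2 1.26 against 1.73. For 2 members it lay outside the interval printed above: H2-Q2, and H2-K1 at 0.48. The intervals are therefore too narrow as a statement of how well those ratios are known. H2-D1 has a deposited p of 0 and gave no value. By the calls of the authors' deposited table, 10 members are up (0.615% of all 16906 genes are) and 1, H2-T24, is down (0.639% are). Those calls compare the reads of the 2 libraries and not the conditions.

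On chromosome 17, 34 members lie between Tapbp and H2-M2 (chr17:33915899-37483552, GRCm38), interleaved with 116 other genes of the table. Among 26 measured members there, 14 were higher and 2 lower, and the median log2 ratio was 0.65. Among the 95 other genes measured in the same stretch, 4 were higher and 7 lower, and the median was 0.02. Counting only genes at 1 FPKM or more in Ctrl, 9 of 21 members were higher and 2 lower (median 0.36), and of 93 other measured genes 3 were higher and 7 lower. In the block from H2-D1 to H2-Q10 (chr17:35262730-35474563) 7 of 7 members were higher, of which H2-Q1 and H2-Q10 were under 1 FPKM in Ctrl and so had to be, and no other gene of the table lies there. In the interval before it, from H2-Eb2 to H2-D1, 47 other genes had a median of 0.00, with 2 higher (Ddah2 and Ltb) and 5 lower (Ppt2, Prrt1, Tnxb, Vars and G6b). In the interval after it, from H2-Q10 to H2-T24, 21 other genes had a median of 0.01, with 0 higher and 1 lower (Cdsn). Within the T block, from H2-T24 to H2-T3, 7 members were measured, with 3 higher (H2-T10, H2-Bl and Gm10499) and 1 lower (H2-T24). H2-Bl and Gm10499 were under 1 FPKM in Ctrl. The members of the block summed to 261.64 FPKM in Ctrl and 292.45 in CKO. Also in that block, Gm8909, a further gene of the region that is not a member, had 11.7 FPKM in Ctrl and 31.96 in CKO (log2 1.41, 1.25 to 1.66). It is the gene that shares most 50-base windows with the member Gm10499 (2.26%). The 4 other genes called higher in the whole stretch were Gm8909, Ddah2, Ltb and Psmb9, so they include an antigen processing gene. No test of members against the genes between them was made and nothing is read from these counts, because the members' ratios were known beforehand.

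**Figure D4:**
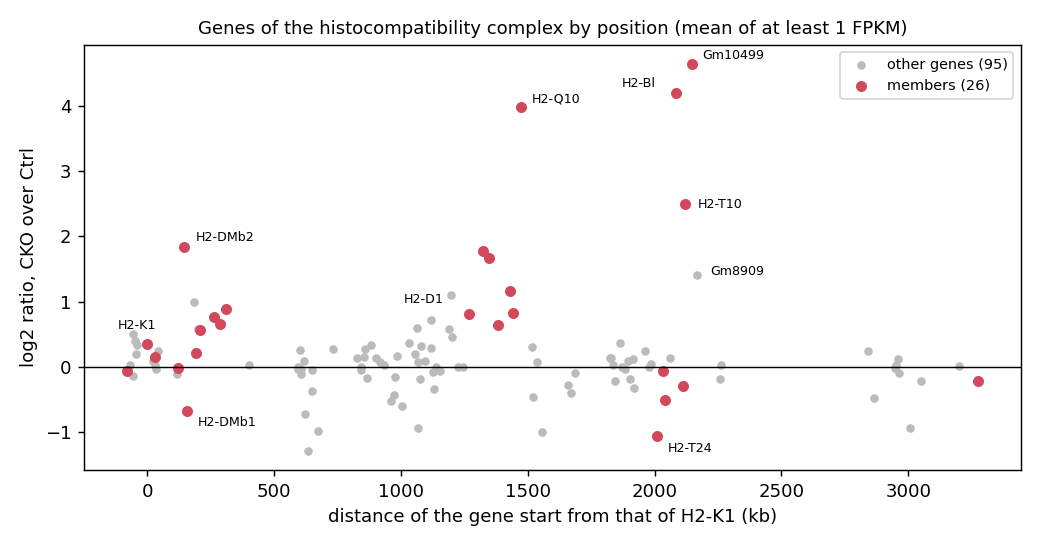
Log2 ratio of CKO over Ctrl against the distance of the gene start from that of H2-K1 in kilobases, for 26 measured members (red) and 95 other measured genes (grey) of the histocompatibility stretch of chromosome 17. The members drawn from H2-D1 to H2-Q10 are all above 0.6, the genes on either side of them scatter around 0, and Gm10499 at 4.64 is the highest point. H2-Q8, H2-Q9 and LOC547349 have no coordinates and are not drawn.

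Further genes of antigen presentation came from lists written down for the pathway. The 6 proteasome genes of antigen processing all had ratios above 0 (44.8% of all measured genes did), with a median log2 ratio of 0.39. Of them 1 was called higher (2.28% of all measured genes were) and 0 lower (3.03%). That gene was Psmb9, an inducible catalytic subunit encoded beside Tap1, at 20.16 FPKM in Ctrl and 40.63 in CKO (0.99, 0.76 to 1.26). The other inducible subunits, Psmb8 and Psmb10, had log2 ratios of 0.58 and 0.51, and the activator Psme1 had 0.26. Psme3 had 0.20, and Psme2 had 0.10 with an interval that includes 0 (-0.03 to 0.23). The 5 general chaperones and pore genes (Calr, Canx, Pdia3, Hspa5 and Sec61a1) had a median of -0.07, with 0 called.

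Of 20 regulators besides Nlrc5 and Ciita, 1 was called higher (2.28% of all measured genes were) and 0 lower (3.03%), with a median of 0.02. The gene called was Irf8, at 2.35 FPKM in Ctrl and 3.79 in CKO (log2 0.59). Irf1, a transcription factor of the interferon response that acts on class I promoters, was at 35.42 and 43.44 FPKM (0.29, 0.17 to 0.42). Rfx5, part of the complex on class II and class I promoters, was at 14.26 and 13.89 FPKM. Ratios above 0 were found for 12 of the 20. Nfyc (0.31, 0.14 to 0.49) and Ifngr1 (0.20, 0.08 to 0.32) also had intervals above 0. Intervals below 0 were those of Creb1 (-0.39, -0.58 to -0.25), Stat2 (-0.32, -0.48 to -0.18), Nfya (-0.31, -0.48 to -0.16) and Jak1 (-0.17, -0.24 to -0.11). The NF-kB genes Nfkb1 (0.01) and Rela (0.04) were close to equal. Of 8 measured genes of class II processing 1 was higher (2.28% of all measured genes were) and 0 lower (3.03%). The higher one was the cathepsin gene Ctsl at 286.12 and 435.34 FPKM (0.60). Of 5 measured class I-like genes outside the complex, 0 were called, and the highest ratio was that of the IgG transporter gene Fcgrt at 27.31 and 36.5 FPKM (0.41).

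Marker genes show which other cells could contribute. In bulk samples a different number of cells of a type and a different RNA level per cell cannot be told apart. Of 20 leukocyte markers 19 are in the table, 4 were measured and 0 were called. Their summed level was 28.8 FPKM in Ctrl and 27.9 in CKO. The pan-leukocyte marker Ptprc was at 0.21 and 0.23 FPKM and the dendritic cell marker Itgax at 0.3 and 0.35. Cd3e, of T cells, was at 0.28 FPKM in Ctrl and at the floor of 0.01 in CKO. The 4 measured markers had a median log2 ratio of 0.22 and did not share a direction. Lyz2, of macrophages, was at 4.42 and 6.57 FPKM (0.52, 0.06 to 1.08), Cd68 at 8.49 and 9.97 (0.22), and Csf1r at 0.89 and 1.12 (0.22). Zbtb46, a transcription factor of dendritic cells that endothelial cells also make, was at 10.44 and 7.03 FPKM (-0.54), and it held much of the summed level. Cd74, H2-Aa, H2-Ab1 and H2-Eb1 were called higher in the same CKO library, and the part that leukocytes have in those class II reads was not tested.

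Of 6 measured basal cell markers, 5 were higher in CKO (2.28% of all measured genes were) and 1, Trp63, was lower (3.03%). The sum of all 7 was 126.35 FPKM in Ctrl and 234.32 in CKO. The part of basal cells in the members' ratios was not tested. The 10 luminal markers were all measured, with a median log2 ratio of 0.11. Of them 1, Krt18, was called higher (2.28% of all measured genes were) and 0 lower (3.03%). Ratios above 0 were found for 7. The others were Pgr (-0.44, -0.55 to -0.35), Prlr (-0.30, -0.33 to -0.27) and Elf5 (-0.26, -0.44 to -0.08), with intervals below 0. The epithelial marker Epcam had 1189.5 FPKM in Ctrl and 1232.98 in CKO. The 4 endothelial and 3 measured fibroblast markers had 0 calls.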

How the data were processed

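RNA sequencing values of 1 Ctrl and 1 CKO library of sorted mammary luminal cells were taken from the authors' deposited table. The submitters' processing notes name HISAT, Bowtie2, RSEM and mm10, with no versions and no read length. The header gives no unit. The deposited values were taken as FPKM, because their products with transcript length in kilobases total 999609 (Ctrl) and 999909 (CKO). Values have 2 decimals and a floor of 0.01. The deposited log2 ratios equal those of the FPKM columns. The deposited p-values and false discovery rates come from the authors' test of 1 library's reads against the other's, and are used only to recover depth and to list the authors' calls.

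The share of CKO in all reads (0.4779) came from genes at the floor in 1 library, of which 674 of 698 gave whole reads within 0.05, and the totals (about 12550000 and 11500000) from the p-values of 6817 genes, whose log10 values were matched with a median error of 0.0985. Reads per gene are FPKM times kilobases times these totals. Ratios use log2(FPKM + 0.5), which understates the change of weak genes, and carry 95% exact conditional binomial (Clopper-Pearson) intervals. Reads copied by PCR are not independent, so intervals cover counting error only. The scripts were tested on simulated data. With 1 library per group no test across samples was possible and no p-value was computed.

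The members and lists were chosen with earlier results of these data known. All members were to be named, those with a mean of at least 1 FPKM with both values. Other genes named come from the lists or lie between members on chromosome 17. Positions and transcripts are from GENCODE M21 (GRCm38) and promoters from RefSeq (GRCm38.p6), joined by gene identifier. Identity between proteins, planned, was not computed because no protein table was used here. Alternatives were other added values and minimum levels, centring, read sums, leaving out the most abundant gene of a class, and the authors' calls. Python 3.11.15, pandas 2.3.3, numpy 2.4.6, scipy 1.17.1, Biopython 1.88 and matplotlib 3.10.9 were used.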

Additional observations from a re-analysis of the deposited data

How the results depend on the processing

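Members called higher at 1.5-fold numbered 13 to 18 over the alternatives (17 as reported), and those higher at 2-fold 8 to 10 (8). Lower members at 1.5-fold were 1 with a mean of at least 5 FPKM (2 as reported), and at 2-fold 1 at a minimum of 1 FPKM in place of 5 and 1 by the authors' deposited table (0). Over all genes the 2-fold counts were 110 higher and 91 lower at that minimum, and 104 and 108 in the authors' deposited table (58 and 31). Without the most abundant gene of a class the log2 ratio of sums was 0.36 for the classical pair (0.58), 1.13 for the Q loci (0.85), 0.21 for the loading genes (0.41), 0.71 for the class II chains (0.31) and 0.64 for Ciita alone (0.95 with Cd74). For the M loci it was 1.22 without H2-M3 and -0.03 with it, from genes of under 1 FPKM. Summed as reads, the loading genes had 0.33. These shifts follow from the changed minimum, gene set or unit itself. The median of H2-Bl, Gm10499 and LOC547349 was 5.26 with 0.1 FPKM added and 3.62 with 1 FPKM. Other alternatives kept direction, and counts stayed within 1.5 times. The Q sum without H2-Q8 and H2-Q9, chosen after seeing the data, had 0.83. Depth limits the members under 1 FPKM in Ctrl, whose intervals span several log2 units. No paired analysis was possible because there is 1 library per group.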
